A study of Homo sapiens with 12 samples.

Results

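FDX2 loss at 20% O2 was examined across all genes in 6 of the 12 RNA-seq libraries of FDX2-iKO ES2 cells, a line from a human ovarian carcinoma. Members were chosen by condition alone: the 3 libraries of cells grown at 20% O2 wo Doxy were set against the 3 libraries of cells grown at 20% O2 + Doxy. In these cells the endogenous FDX2 gene had been knocked out by CRISPR-Cas9, and an HA-tagged FDX2 that resists the guide RNA was supplied from a TetON promoter, so that Doxy (doxycycline) kept FDX2 present and its removal depleted the protein. Both groups carried the knockout and the transgene, came from cloned cells and were grown for 6 days at 20% O2. Because Doxy itself was present in only one of the groups, effects of FDX2 loss and of the drug cannot be told apart. A further 6 libraries, 3 + Doxy and 3 wo Doxy, came from cells kept 4 days at 20% O2 and then 3 days at 3% O2, and served to estimate the spread and to test whether a response differed at the lower oxygen level.

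FDX2 is a mitochondrial ferredoxin, a small electron carrier that feeds electrons into the assembly of iron-sulfur clusters on the scaffold protein ISCU. Iron-sulfur clusters are cofactors of respiratory complexes, lipoate synthase and several nuclear enzymes of DNA synthesis and repair. Mitochondrial faults in many cell types are relayed to the integrated stress response, in which phosphorylation of eIF2α lowers general translation and favours the transcription factor ATF4. The account below concerns functions outside the secretory phenotype of senescence, HIF-1 targets, iron-sulfur proteins and cell cycle genes.

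The 6 libraries held 28018539 to 34313637 counts each. Levels are given as CPM, that is counts relative to the library total after TMM scaling, and the log2 fold change is the value without Doxy over the value with Doxy from edgeR. Of 58735 genes, 16891 had enough counts to be tested. Replicates with Doxy differed from each other more (median chi-square per degree of freedom 4.56) than those without (1.32). For replicates 1 and 2 with Doxy the submitters state that one raw file of the read pair no longer exists, although their counts were deposited. The counted FDX2 gene does not check the depletion: it had 5, 2 and 6 counts with Doxy and 9, 13 and 4 without, and 70.9% of its exonic bases lie in other annotated genes. Its paralog FDX1 stood at 44.9 to 44.8 CPM. The line carried KRT7 (577 to 437 CPM), KRT18 (566 to 387 CPM) and much vimentin (VIM, 2989 to 2124 CPM). Of the ovarian and epithelial markers checked, PAX8 stood at 8.32 and 6.07 CPM, KRT8 at 60.4 and 52.3 CPM, MUC16 had 0 counts, and WT1, EPCAM and CDH1 had at most 8 counts in a library. Leukocyte, endothelial and liver markers (PTPRC, CD3E, PECAM1, VWF, ALB) had at most 6 counts in a library, LYZ lay near 1.25 CPM in both groups, and COL1A1 was abundant (1509.7 to 1114 CPM, not called).

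Genes with an adjusted p under 0.05 (quasi-likelihood test in edgeR, p-values adjusted after Benjamini and Hochberg) are called higher or lower, and 35.3% of those tested were. Of these, 2971 genes were higher without Doxy (17.6% of those tested) and 2990 were lower (17.7%), with a median log2 fold change of 0.01 over all tested genes. Increases were larger than decreases: 777 genes (4.6%) were higher by at least 2-fold and 133 (0.787%) were lower by as much. The 3 values of one group lay wholly outside those of the other for 8841 genes (52.3%). Scaling by library totals alone shifted the median of all genes to 0.13 and the split to 4256 higher and 1708 lower. A correction for transcript GC content gave 4412 higher and 3427 lower genes. Across genes the log2 fold change fell with GC content (Spearman rho −0.26 over 11135 genes, which are not independent). Of the genes named below, those with more than 30% of their exonic bases in another annotated gene are marked where they appear or are PCBP1 (52.2%), SLC25A10 (46.6%), RAB8A (41.7%), TUBA1B (36.6%), HSPA1B (36.5%), SNHG16 (33.4%), CAVIN3 (33.3%), MTHFD2 (33.2%), PCBP2 (32.7%), MACROH2A1 (30.9%), TIMM9 (30.5%), ACTA2 (30.1%) and CCT5 (30.1%). In bulk RNA, fewer cells of one kind and less RNA per cell cannot be told apart.

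Of the 40 genes with the largest changes outside the 4 excluded themes, the 20 increases spanned log2 fold changes of 1.86 to 2.83. SULT1C2, a cytosolic sulfotransferase gene at chr2:108288639-108309915, had 3.20, 2.65 and 2.79 CPM with Doxy and 18.6, 21.3 and 21.5 CPM without. Its 3 values without Doxy all stood far above the 3 with Doxy (log2 fold change 2.83, SE 0.0929, adjusted p = 1.83e-08 by edgeR). The gene of the cysteine protease cathepsin S (CTSS, chr1:150730196-150765957) followed with 1.73, 1.92 and 1.79 CPM with Doxy and 10.2, 11.9 and 13.2 CPM without, and the melanosomal and lysosomal glycoprotein GPNMB (chr7:23235967-23275108) with 7.10, 9.10 and 8.29 CPM with Doxy and 42.3, 43.7 and 43.5 CPM without. For these genes and the other 37 of the 40, the groups did not overlap, which the choice of genes required.

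Of the 20 increases, DDIT3 (2.49), ATF3 (2.29) and DDIT4 (2.01) are in the list of the ATF4 pathway described below. SDSL (1.96), which encodes a serine dehydratase-like protein, was also among the 20. Others were SAT1 (6.48 ± 0.850 to 31.7 ± 1.19 CPM), the catabolic enzyme of spermine and spermidine, the adhesion receptor VCAM1 (2.07 on the log2 scale), the secretogranin SCG2 (3.32 to 12.7 CPM), the neuropeptide SPX (4.17 to 17.9 CPM), the monocarboxylate transporter family member SLC16A6 (2.05 to 8.25 CPM), the ubiquitin ligase HECW2 (15.6 to 58.9 CPM), the p53-inducible TP53INP1 (4.85 to 18.2 CPM), the pappalysin PAPPA2 (19.9 to 72.6 CPM) and KLHL24 (7.07 to 25.7 CPM). The noncoding transcripts LYPLAL1-DT (2.12) and LINC00973 (2.06) and the histone genes H2BC15 (2.66) and H2BC5 (2.48) completed this set.

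The 20 decreases were smaller, from −1.62 to −1.08. HPDL (chr1:45326905-45328533), which acts in the synthesis of the coenzyme Q headgroup, had 32.4, 22.0 and 17.9 CPM with Doxy and 8.22, 7.43 and 7.90 CPM without (log2 fold change −1.62, SE 0.248, adjusted p = 4.97e-04 by edgeR). All 3 values without Doxy lay below the lowest with Doxy. The histone variant gene H2AX had 267, 168 and 150.0 CPM with Doxy and 85.5, 83.7 and 79.9 CPM without. For H2AX the replicates with Doxy were spread widely (SD 62.7 CPM), whereas those without Doxy lay close together (SD 2.86 CPM). With the cell cycle lists set aside, genes known from DNA replication and mitosis in this set were the helicase PIF1 (−1.20), the replication-associated repair factor TONSL (−1.08), the protease-like FAM111B (−1.15), the kinesin KIFC1 (−1.14) and the cyclin CCNF (−1.40). The caveola protein gene CAVIN3 (−1.33), the RNA-binding RBM14 (−1.27), the apelin gene APLN (−1.19), SERPINA1 (−1.16), the hemidesmosomal collagen COL17A1 (−1.15) and the transcription factor KLF2 (−1.08) also fell. As for HPDL and H2AX, replicate 1 with Doxy was the highest for TONSL (156, 96.6 and 85.6 CPM) and KLF2 (33.2, 22.6 and 20.4 CPM). It was not for FAM111B (42.8, 47.8 and 48.6 CPM) or SERPINA1 (87.6, 91.3 and 89.7 CPM). AMH (−1.24) was no longer called when replicate 1 with Doxy (−0.88) or replicate 3 without Doxy (−1.15) was left out, while the other 39 genes kept their call in every setting tried.

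**Figure D1:**
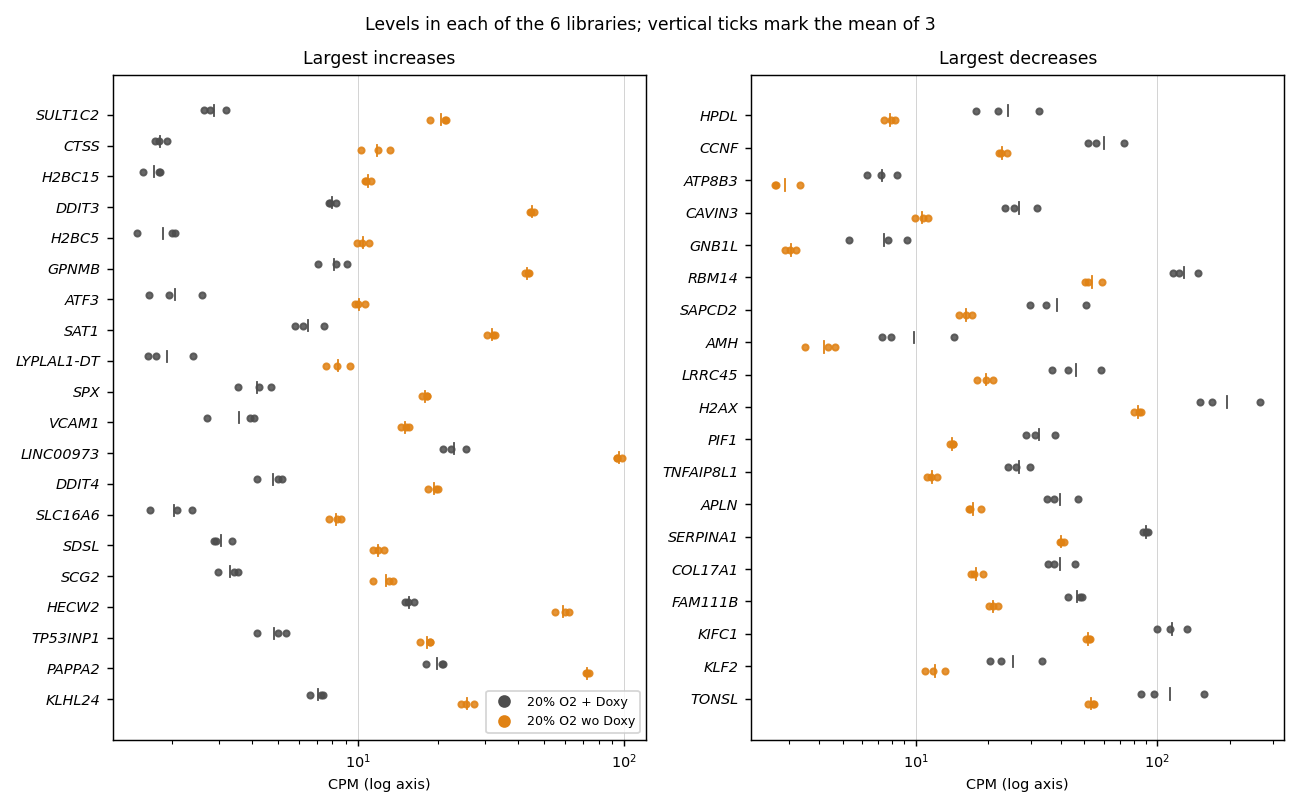
CPM (log axis) of the 20 largest increases (left) and 19 of the 20 largest decreases (right) in the 3 libraries with Doxy (dark) and the 3 without (orange), with a tick at each mean. Without Doxy SULT1C2 rose to a mean of 20.5 CPM and HPDL fell to 7.85 CPM, and no pair of groups overlaps.

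Genes were then grouped into 83 lists by function or family. The median log2 fold change lay above 0 for 41 lists and below 0 for 42. With library totals alone 23 of these medians turned from below to above 0, and with the GC correction 14 did. The ATF4 pathway (1.41) and the replication-dependent histone genes (1.16) had the highest medians among lists with at least 10 tested members, and the cytosolic heat shock proteins (−0.75) and cholesterol synthesis (−0.49) the lowest. Each list is described by its counts and its median, to be read against the 17.6% higher, 17.7% lower and median 0.01 of all tested genes.

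Nearly all members of the ATF4 pathway rose. Of 17 tested regulators and targets, 15 were higher and 0 lower, with a median of 1.41 (0.89 with at least 10 counts in every library) and 9 members up by at least 2-fold. DDIT3, which encodes the transcription factor CHOP, had 7.86, 8.26 and 7.76 CPM with Doxy and 44.2, 45.7 and 44.6 CPM without (2.49, adjusted p = 1.49e-09 by edgeR), although 39.6% of its exonic bases lie in another gene. CHAC1, which degrades glutathione, had 4.28, 3.04 and 2.47 CPM with Doxy and 11.8, 11.1 and 11.1 CPM without (1.79, SE 0.201). In both genes every value without Doxy exceeded every value with Doxy. ATF4 mRNA itself rose less (329 ± 20.0 to 438 ± 18.2 CPM, 0.41). The partner factor CEBPG (0.88), the pseudokinase TRIB3 (0.82), the secreted STC2 (0.86), the eIF2α phosphatase subunit PPP1R15A (1.41), cystathionine gamma-lyase CTH (1.65), the leucine sensor SESN2 (1.74) and the mTORC1 inhibitor DDIT4 (2.01, overlap 41.2%) were higher. The chromatin-associated NUPR1 went from 0.236 to 3.59 CPM. JDP2 was at 0 counts in the 3 libraries with Doxy and at 0.417, 0.506 and 0.585 CPM without, at least 5.15-fold higher against a floor of 3 counts per library, and the list's median was 1.41 also with JDP2 at that bound. ATF5 (0.06) and EIF4EBP1 (−0.23) were not called. CEBPB was called (0.74) but lost its call in 6 of the 15 settings.

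ATF4 binds, with C/EBP partners, to composite C/EBP-ATF elements. Promoter windows from 250 bases before to 50 after the start site (RefSeq, GRCh38.p14) were searched on both strands for the letters TGATGNAAN, which 3.61% of all 35116 windows hold. They were present in 4 of the 15 matched windows of the ATF4 pathway, in 7 of 16 of the cytosolic aminoacyl-tRNA synthetases and in 6 of 18 of the amino acid transporters. Of all tested members of these lists, 15 of 17, 9 of 20 and 10 of 23 were higher. The genes with a match were higher in 4 of 4, 6 of 7 and 3 of 6 cases. Windows of the 13 members that were higher are shown because their sequences let the matches be compared, with up to 20 bases either side, 5′ to 3′ along the gene and the match in capitals:
CHAC1 (chr15:40953241-40953289): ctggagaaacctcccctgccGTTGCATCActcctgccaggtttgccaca
CEBPG (chr19:33374051-33374099): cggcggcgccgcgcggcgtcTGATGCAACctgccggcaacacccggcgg
ATF3 (chr1:212565196-212565244): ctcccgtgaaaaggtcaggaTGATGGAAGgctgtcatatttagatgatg
JDP2 (chr14:75427986-75428034): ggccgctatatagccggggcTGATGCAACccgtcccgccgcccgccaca
AARS1 (chr16:70289666-70289714): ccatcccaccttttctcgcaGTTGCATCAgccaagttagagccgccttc
GARS1 (chr7:30594824-30594872): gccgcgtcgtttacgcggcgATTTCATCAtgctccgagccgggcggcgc
CARS1 (chr11:3057398-3057446): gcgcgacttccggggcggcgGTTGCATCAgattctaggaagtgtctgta
MARS1 (chr12:57488043-57488091): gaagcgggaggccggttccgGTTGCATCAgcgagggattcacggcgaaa
IARS1 (chr9:92293683-92293731): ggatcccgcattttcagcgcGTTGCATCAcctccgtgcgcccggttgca
NARS1 (chr18:57621794-57621842): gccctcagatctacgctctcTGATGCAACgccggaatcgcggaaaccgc
SLC1A4 (chr2:64989371-64989419): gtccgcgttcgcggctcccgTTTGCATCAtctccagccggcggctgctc
SLC38A1 (chr12:46266492-46266540): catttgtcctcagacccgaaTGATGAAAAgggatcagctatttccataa
SLC3A2 (chr11:62881715-62881748): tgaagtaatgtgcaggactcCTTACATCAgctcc
CEBPG, JDP2 and NARS1 carried the same 9 letters on the gene strand, and CHAC1, AARS1, CARS1, MARS1 and IARS1 carried their reverse complement. A match is a description of letters and was not tested as a binding site.

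Genes of amino acid supply rose in part. Asparagine synthetase (ASNS) had 1.34, 1.23 and 1.23 CPM with Doxy and 5.07, 6.42 and 5.20 CPM without (2.13, SE 0.235, overlap 44.6%), so that it remained a low transcript in both groups without overlap between them. Of 16 tested enzymes for serine, glycine, folate-carried one-carbon units and proline, 4 were higher and 5 lower, with a median of 0.08 (−0.01 when replicate 3 with Doxy was left out). The rises were ASNS, the mitochondrial folate enzymes ALDH1L2 (1.28) and MTHFD2 (0.41) and the serine synthesis enzyme PSAT1 (0.48). PHGDH (0.15) and SHMT2 (0.00) were not called. In the other direction, the proline synthesis enzymes PYCR3 (−0.82) and ALDH18A1 (−0.61) and the cytosolic enzymes SHMT1 (−0.31) and MTHFD1 (−0.30) were lower.

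Of 23 tested amino acid transporters, 10 were higher and 1 lower (median 0.44, but 0.20 with at least 10 counts in every library and 0.29 without replicate 2 with Doxy). SLC7A11, the light chain of the cystine-glutamate exchanger, had 25.4, 28.3 and 30.2 CPM with Doxy and 62.3, 60.0 and 68.3 CPM without (1.18, SE 0.109, adjusted p = 1.42e-05 by edgeR), with no overlap. Its heavy chain partner SLC3A2 went from 204 ± 17.9 to 406 ± 7.67 CPM. The glycine transporter SLC6A9 (0.951 to 5.35 CPM, 2.49), the glutamate transporter SLC1A2 (1.36) and the neutral amino acid transporters SLC1A4 (0.85), SLC43A2 (0.82) and SLC38A1 (0.55) also rose, as did SLC36A1 (0.73) and SLC38A9 (0.59) of the lysosomal membrane. The taurine transporter SLC6A6 (−0.39) was the member that fell. Abundant carriers of glutamine and cationic amino acids, SLC1A5 (−0.07) and SLC7A1 (−0.01), were not called.

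Cytosolic and mitochondrial aminoacyl-tRNA synthetases differed in their counts, although those of the mitochondrial list depended on the scaling. Of 20 cytosolic synthetases, 9 were higher and 2 lower, with a median of 0.03 (−0.01 without the filter on low counts). Alanyl-tRNA synthetase AARS1 had 264, 247 and 229 CPM with Doxy and 449.8, 463 and 432 CPM without (0.86, SE 0.0612, adjusted p = 2.30e-06 by edgeR). The others that rose were WARS1 (0.85), GARS1 (0.60), CARS1 (0.56), SARS1 (0.53), LARS1 (0.39), MARS1 (0.34) and IARS1 (0.18) and NARS1 (0.18), the last called in 6 of 15 settings. VARS1 (−0.61) and HARS1 (−0.25) were lower. Of 17 mitochondrial synthetases, 1 was higher (CARS2, 0.22, called in 8 of 15 settings) and 6 were lower (median −0.11, but 0.02 with library totals alone), led by VARS2 (−0.80), SARS2 (−0.62), RARS2 (−0.32) and IARS2 (−0.28). SARS2, with 57.0% of its exons inside other genes, was called in 8 of 15 settings. With library totals alone 4 mitochondrial synthetases were higher and 1 lower, and with the GC correction 4 were higher and 5 lower.

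**Figure D2:**
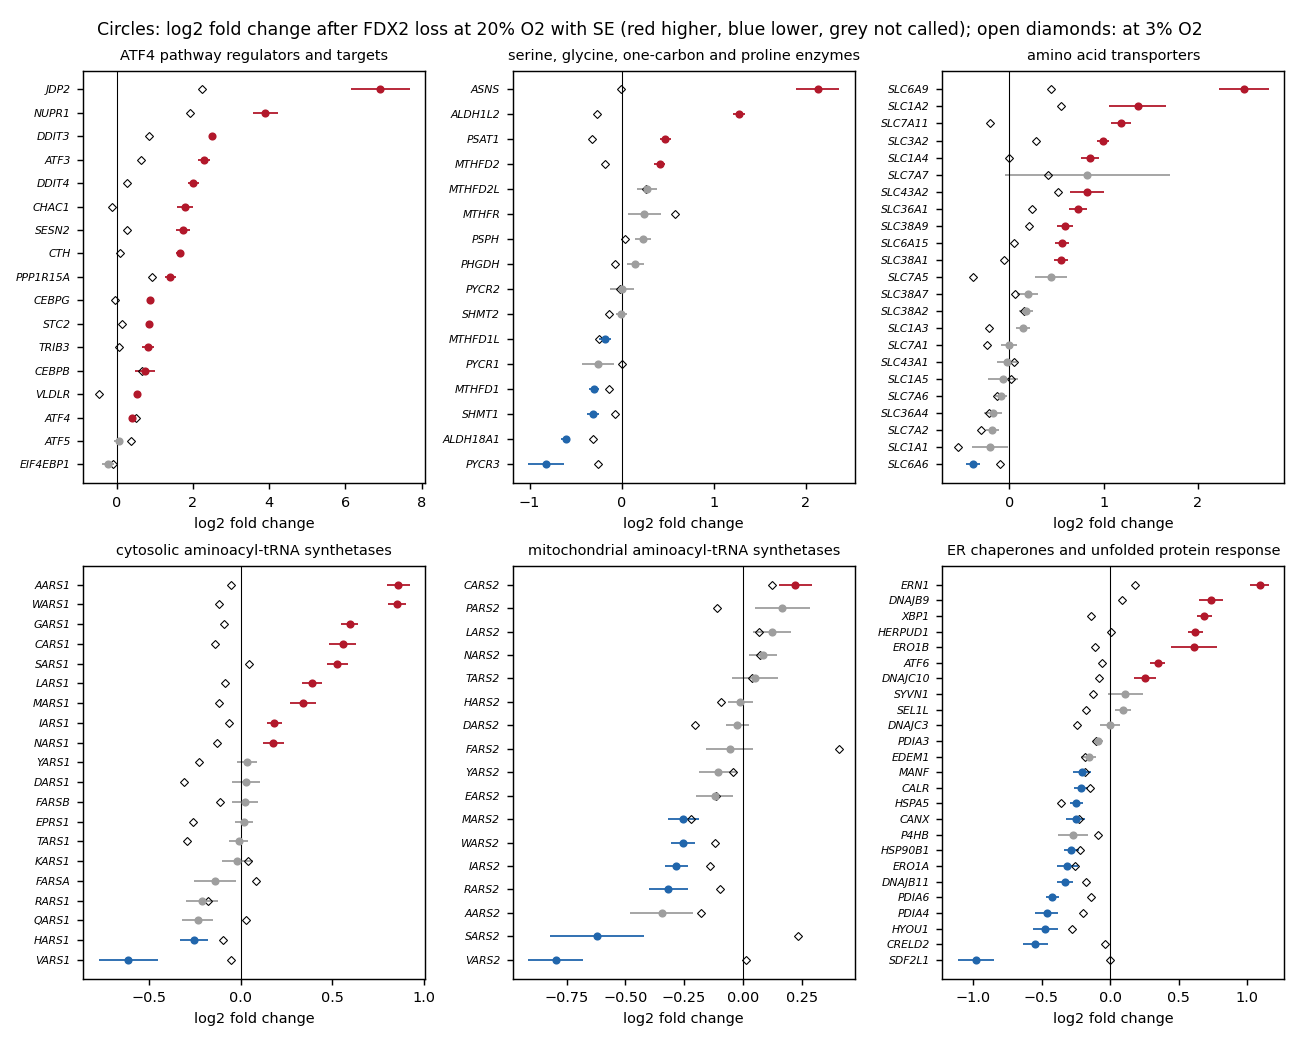
Log2 fold change at 20% O2 with its SE (circles, red higher, blue lower, grey not called) and at 3% O2 (open diamonds) for the ATF4 pathway, amino acid supply and the endoplasmic reticulum, one panel per list. The ATF4 pathway sits to the right at 20% O2 (median 1.41) and nearer 0 at 3% O2 (median 0.28), and the fitted value of JDP2 depends on the prior count because its libraries with Doxy were at 0.

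Most genes of cytosolic protein folding fell. Of 16 tested heat shock proteins and cochaperones, 14 were lower and 1 higher (DNAJB4, 0.31), with a median of −0.75. These include some of the most abundant transcripts of the cells. The constitutive HSP70 gene HSPA8 had 2879, 2986 and 3009 CPM with Doxy and 1524, 1521 and 1479.7 CPM without (−0.97, SE 0.0317, adjusted p = 1.83e-08 by edgeR). The HSP90 gene HSP90AB1 had 4019, 4010.1 and 3869 CPM with Doxy and 2137, 2132 and 2047 CPM without (−0.91, SE 0.0548). In both the groups lay wide apart relative to their spread. HSP90AA1 (−0.74), the stress-inducible pair HSPA1A (−0.94) and HSPA1B (−0.85) (near-identical copies that counting can split), the HSP110 gene HSPH1 (−0.82), the cochaperones BAG3 (−0.83), STIP1 (−0.72), DNAJB1 (−0.67), DNAJA1 (−0.65) and AHSA1 (−0.61) and the small heat shock protein gene HSPB1 (−0.76) were lower too. HSF1, the transcription factor that drives these genes under heat, was not called (138 to 137 CPM, 0.00).

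Heat shock factor binds alternating GAA repeats. The letters TTC, GAA and TTC in this order with 2 bases between neighbours were searched on both strands. They are in 0.49% of all promoter windows and in 4 of 15 matched windows of this list. In the list as a whole 14 of 16 tested members were lower, and all 4 genes with a match were lower. Of these, 3 are shown because they are the most abundant members, with the match in capitals:
HSPA8 (chr11:123062334-123062386): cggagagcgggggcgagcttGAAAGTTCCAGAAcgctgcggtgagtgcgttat
HSPA8 (chr11:123062159-123062211): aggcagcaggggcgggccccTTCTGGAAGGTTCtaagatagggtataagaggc
HSP90AB1 (chr6:44247758-44247810): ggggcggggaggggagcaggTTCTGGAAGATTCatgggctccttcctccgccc
HSP90AB1 (chr6:44247811-44247863): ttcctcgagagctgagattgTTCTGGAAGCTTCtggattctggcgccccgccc
HSP90AA1 (chr14:102087100-102087152): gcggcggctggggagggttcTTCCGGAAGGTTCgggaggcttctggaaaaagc
HSPA8 and HSP90AB1 each held the letters at 2 positions of the window.

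The chaperonin TRiC, which folds actin and tubulin, was lower in all 8 of its subunits: CCT5 (−0.68), CCT4 (−0.61), TCP1 (−0.57), CCT2 (−0.56), CCT3 (−0.54), CCT6A (−0.52), CCT8 (−0.24) and CCT7 (−0.24). CCT5 had 673, 694 and 664 CPM with Doxy and 424, 433 and 409.6 CPM without, without overlap. Of the 6 prefoldin subunits tested with it, only PFDN5 was called, and it was higher (0.32). Mitochondrial chaperones and proteases held 0 higher and 7 lower members of 19 (median −0.16). Among these, HSPD1, the chaperonin HSP60, had 1723, 1912 and 1888 CPM with Doxy and 1218, 1170.2 and 1189 CPM without (−0.63), and the protease components CLPB (−0.44), AFG3L2 (−0.44) and CLPP (−0.38) and prohibitin PHB2 (−0.42) were lower. HSPA9 (−0.04), LONP1 (−0.06), OMA1 (−0.02) and DELE1 (−0.03), the last 2 known for relaying mitochondrial stress to the integrated stress response, were not called. Of 46 tested proteasome subunits and activators, 24 were lower and 2 higher (median −0.26, but −0.16 with the GC correction). PSMD1 (−0.52) and PSMD3 (−0.49) of the regulatory particle were among the largest falls, whereas the 2 that rose were the immunoproteasome subunits PSMB8 (0.48) and PSMB9 (1.72), with PSMB9 at 0.247 to 0.823 CPM and called in 8 of 14 settings.

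In the endoplasmic reticulum the response was divided. Of 25 tested genes, 7 were higher and 12 lower (median −0.20, but −0.11 with the GC correction). Among those that fell were SDF2L1 (−0.98), CRELD2 (−0.55), HYOU1 (−0.47), PDIA4 (−0.46), PDIA6 (−0.42) and HSP90B1 (−0.28). Among those that rose were ERN1 (1.09), XBP1 (0.69) and ATF6 (0.35), the first encoding the IRE1α kinase, and DNAJB9 (0.74) and HERPUD1 (0.62). XBP1 had 63.3, 64.4 and 63.3 CPM with Doxy and 100.5, 104 and 103 CPM without, with all values without Doxy above those with Doxy.

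Genes of the mitochondrion changed by small amounts. Of the 13 mRNAs of the mitochondrial genome, 2 were higher (MT-ND1, 0.66, and MT-ND2, 0.43, called in 10 of 15 settings) and 1 lower (MT-ND6, −0.71), with a median of 0.07, but −0.01 without replicate 1 with Doxy, −0.02 without replicate 2 with Doxy and −0.01 without replicate 1 without Doxy. MT-CO1, the most abundant, stood at 8785 ± 532 to 9575 ± 351 CPM and was not called. Complex I subunits and assembly factors held 4 higher and 11 lower of 50 (median −0.04, but 0.08 with library totals alone and 0.00022 with the GC correction), the 11 becoming 3 with library totals alone. Complexes II to V held 4 and 10 of 56 (median −0.03, but 0.09 with library totals alone). Within them, ATP5MC3 (−0.56), UQCRFS1 (−0.48), SDHA (−0.42) and ATP5F1A (−0.36) were lower and SDHC (0.35) was higher. NDUFA4L2, a complex I-associated protein, was a low transcript that rose (1.00 to 2.46 CPM, 1.29).

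Of 24 genes of the TCA cycle and pyruvate entry, 2 were higher and 6 lower, with a median of −0.06 (0.06 with library totals alone). Pyruvate carboxylase PC (30.8 ± 6.78 to 18.2 ± 0.727 CPM, −0.75) and fumarase FH (−0.40) fell, and PDK4, a kinase that inhibits pyruvate dehydrogenase, rose from low levels (0.374 to 1.05 CPM, 1.49). Malate dehydrogenase MDH2 (0.00) was not called. Mitochondrial ribosomal proteins had 7 higher and 19 lower of 78 (median −0.10, but 0.03 with library totals alone). Protein import had 2 and 8 of 23 (median −0.10, but 0.03 with library totals alone), with TIMM13 (−0.66) and TOMM40 (−0.58) lower and TIMM9 (0.63) higher. Fatty acid oxidation had 3 higher and 7 lower of 20 (median −0.07, but 0.05 with library totals alone and 0.01 with the GC correction). There the very long chain dehydrogenase ACADVL (0.58) and the carnitine-acylcarnitine carrier SLC25A20 (0.76) rose, while HADH (−0.61), ACAD9 (−0.45), ACADSB (−0.41) and ECI2 (−0.40) fell. Coenzyme Q synthesis had 5 higher and 3 lower of 14, with a median of −0.06 (0.06 with library totals alone and 0.03 with the GC correction). Besides HPDL, the polyprenyl enzymes PDSS1 (−0.46) and COQ2 (−0.34) were lower and the methyltransferase COQ5 (0.42) was higher. Mitochondrial carriers split 10 to 12 of 41 (median −0.05, but 0.08 with library totals alone, 0.06 with the GC correction and 0.0024 without replicate 1 with Doxy): the uncoupling protein family member SLC25A27 (0.97), SLC25A42 (0.97) and SLC25A30 (0.53) rose, and the dicarboxylate carrier SLC25A10 (−0.97) and the aspartate-glutamate carrier SLC25A13 (−0.66) fell.

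Iron handling genes included rises on both the uptake and the storage side. Of 20 tested, 7 were higher and 3 lower, with a median of −0.01. The median was 0.11 with library totals alone, 0.08 with the GC correction and 0.02 with at least 10 counts in every library. With only the 20% O2 libraries it was 0.01, and it was 0.0040 or 0.0029 without replicate 1 or 3 with Doxy. Ferritin light chain FTL had 715, 619 and 634 CPM with Doxy and 1221, 1248 and 1143 CPM without (0.88, SE 0.115, adjusted p = 1.71e-04 by edgeR). Ferritin heavy chain FTH1 (0.79) overlaps other genes over 62.4% of its exons. The transferrin receptor TFRC (459.6 to 606 CPM, 0.40) and the ferrireductases CYBRD1 (0.54) and STEAP2 (0.42) were higher as well. The iron chaperones PCBP1 (−0.54) and PCBP2 (−0.32) and the hemochromatosis protein gene HFE (−0.58) were lower, and the iron regulatory proteins ACO1 (−0.07) and IREB2 (−0.21) were not called. In heme metabolism 4 were higher and 6 lower of 18 (median −0.04, but 0.08 with library totals alone and 0.01 with the GC correction): the rate-limiting ALAS1 (49.4 ± 4.59 to 69.6 ± 1.21 CPM, 0.49), the heme transporter SLC48A1 (0.55) and BLVRB (0.45) rose, and HMOX2 (−0.39) and ALAD (−0.21) were among those that fell.

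Of 22 tested NRF2 target enzymes, 10 were higher and 3 lower (median 0.10). The quinone reductase NQO1 had 138, 136 and 142 CPM with Doxy and 235, 239 and 237 CPM without (0.77, SE 0.0394). The autophagy receptor SQSTM1 had 191, 156 and 141 CPM with Doxy and 390.1, 393 and 388 CPM without (1.27, SE 0.128). Both were separated without overlap. The drug exporter ABCC3 (1.81), OSGIN1 (1.13) and the aldo-keto reductases AKR1C1 (1.73) and AKR1C3 (0.88), whose family copies are similar in sequence, rose too. GCLC (0.03) and GSR (0.10) of glutathione metabolism were not called, and carbonyl reductase CBR1 (−0.48) was lower. Of 36 tested glutathione S-transferases, aldo-keto reductases and aldehyde dehydrogenases, 10 were higher and 5 lower (median 0.14), with AKR1B1 (0.89), GSTO2 (1.11) and MGST1 (0.48) among the first and ALDH1B1 (−0.63) and ALDH5A1 (−0.51) among the second. Of 43 sulfotransferase and glucuronosyltransferase genes only 4 had enough counts, and SULT1C2 was the only one that rose. Cytochromes P450 had 1 higher (CYP4V2 (0.63)) and 2 lower of 13, the vitamin D hydroxylase CYP24A1 (−1.03) falling most.

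Antioxidant enzymes against superoxide, peroxide and oxidised thiols held 3 higher and 7 lower of 20 (median −0.10, but 0.02 with library totals alone). Superoxide dismutase SOD1 (159 ± 6.18 to 122 ± 8.19 CPM, −0.38), mitochondrial peroxiredoxin PRDX3 (−0.35), methionine sulfoxide reductase MSRB1 (−0.60) and the mitochondrial glutaredoxin GLRX5 (−0.55), which passes on iron-sulfur clusters, were lower. Ferroptosis regulators had 2 higher and 5 lower of 17 (median −0.11, but 0.01 with library totals alone and 0.04 with the GC correction). GPX4, which reduces lipid hydroperoxides, was not called (0.02). SAT1 and the BH4 synthesis enzyme GCH1 (0.42) rose, whereas DHCR7 (−0.82), the last enzyme of cholesterol synthesis, ACSL3 (−0.40) and VKORC1L1 (−0.34) fell. Of the 3 metallothioneins tested, MT2A (−0.19) and MT1E (−0.05) were not called and MT1X (0.61) was higher.

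Most genes of cholesterol and fatty acid synthesis fell. Of 23 tested genes of cholesterol synthesis and uptake, 18 were lower and 0 higher (median −0.49). Squalene epoxidase SQLE had 76.0, 80.9 and 80.3 CPM with Doxy and 48.0, 44.5 and 47.6 CPM without, with no overlap between the groups. The falls ran through the pathway from HMG-CoA synthase HMGCS1 (−0.55) to SQLE (−0.76), EBP (−0.69) and NSDHL (−0.56) and included INSIG1 (−0.63) and STARD4 (−0.86) and the regulator SREBF2 (−0.46), the last called in 11 of 15 settings. LSS (−0.16), SC5D (−0.07) and PMVK (−0.07) were not called. Of 17 genes of fatty acid synthesis, 11 were lower and 1 higher (median −0.30, but 7 lower and −0.17 with library totals alone). The stearoyl-CoA desaturase SCD had 395, 394 and 407 CPM with Doxy and 208, 212 and 211 CPM without (−0.92, SE 0.0471), with no overlap. SREBF1 (−0.80), ACACB (−0.72), FADS2 (−0.60), ACACA (−0.34) and ELOVL1 (−0.43) were lower too. Fatty acid synthase FASN (1112 to 646 CPM, −0.78) was lower in 10 of 15 settings. The elongase ELOVL7 (0.78), also called in 10, was the one that rose. The sterol element letters TCACNCCAC, searched on both strands and held by 1.13% of all windows, were in 1 of 17 matched windows of the cholesterol list (SREBF2) and in 0 of 16 of the fatty acid list.

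Of 11 tested genes of cholesterol efflux and apolipoproteins, 5 were higher and 0 lower (median 0.33): the exporter ABCA1 (11.5 ± 1.04 to 17.3 ± 1.17 CPM, 0.59), APOL6 (1.83) and APOL3 (1.24), the LXR gene NR1H3 (0.33), called in 9 of 15 settings, and APOE, a low transcript (0.130 to 0.352 CPM) called in 8 of 14. In lipid droplets 2 were higher and 3 lower of 12 (median −0.02, but 0.11 with library totals alone, 0.15 with the GC correction and 0.13 without replicate 1 with Doxy), with the droplet coat proteins PLIN2 (0.58) rising and PLIN3 (−0.62) falling, and the lipolysis inhibitor G0S2 (0.36) higher. Of 17 peroxins 1 was higher (PEX19 (0.28)) and 1 lower (PEX5 (−0.23)), and the median of −0.07 turned to 0.05 with library totals alone, 0.02 with the GC correction and 0.0026 without replicate 3 with Doxy.

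Lysosomal genes rose in part. Of 31 tested hydrolases, 12 were higher and 1 lower (median 0.15). The tripeptidyl peptidase TPP1 had 109, 104 and 100.2 CPM with Doxy and 209, 225 and 216 CPM without (1.05, SE 0.0567, adjusted p = 4.21e-07 by edgeR), all 3 values without Doxy being above those with Doxy. The sphingolipid activator precursor PSAP, the most abundant, went from 342 ± 15.3 to 558 ± 22.8 CPM (0.71), and HEXA (0.68), ASAH1 (0.65), IDS (0.64) and NEU1 (0.55) rose with it. PPT1 (−0.02), GLA (0.00) and GUSB (−0.04) were not called, and acid phosphatase ACP2 (−0.45) was lower. Among 13 cathepsins 5 were higher and 2 lower (median 0.16). Beside CTSS, the collagen-cleaving CTSK (1.11) and CTSO (0.65) and CTSA (0.36) rose, while CTSC (−0.67) fell (199.6 to 126 CPM).

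Of 19 lysosomal membrane proteins and their transcription factors, 11 were higher and 1 lower (median 0.26, but 0.43 with the GC correction). GPNMB led, followed by the cation channel MCOLN3 (0.91), the cholesterol exporters NPC2 (0.85) and NPC1 (0.53), LAMP2 (0.54) and CD63 (0.52), and the 2-pore channel TPCN2 (−0.59) fell. TFEB (0.504 to 0.449 CPM) and TFE3 (0.23) were not called. The vacuolar ATPase, the proton pump of these compartments, had 10 higher and 1 lower of 22 subunits (median 0.21). ATP6V0D2, a subunit known from osteoclasts and macrophages, had 0.0320, 0.145 and 0.0882 CPM with Doxy and 0.642, 1.11 and 1.27 CPM without, so it was near the limit of detection with Doxy. The general subunits rose by less: ATP6V1F (0.55), ATP6V1B2 (0.51), ATP6V1G1 (0.47), ATP6V1C1 (0.41), ATP6V1E1 (0.31) and ATP6V1A (0.28). Of 31 autophagy genes 9 were higher and 2 lower (median 0.08), the rises being largest in the receptor OPTN (1.75), GABARAPL1 (1.48) and WIPI1 (1.15), MAP1LC3B (0.68) and NBR1 (0.65).

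TFEB and related factors recognise the CLEAR letters CACGTGAC. Searched on both strands (the palindromic core CACGTG lets overlapping matches occur), they were in 2.4% of all promoter windows, in 4 of 21 matched hydrolase windows, 3 of 17 of the membrane list and 3 of 14 of the vacuolar ATPase. Among all tested members of these lists 12 of 31, 11 of 19 and 10 of 22 were higher. Of the 10 genes with a match only ATP6V1G1 was higher and 0 were lower. Its window and the first of several matches of LAMP1 (0.15, not called) are shown as one member with a change and one without, the match in capitals:
ATP6V1G1 (chr9:114587689-114587736): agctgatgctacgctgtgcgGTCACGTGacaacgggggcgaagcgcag
LAMP1 (chr13:113297025-113297072): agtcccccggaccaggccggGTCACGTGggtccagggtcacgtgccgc

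**Figure D3:**
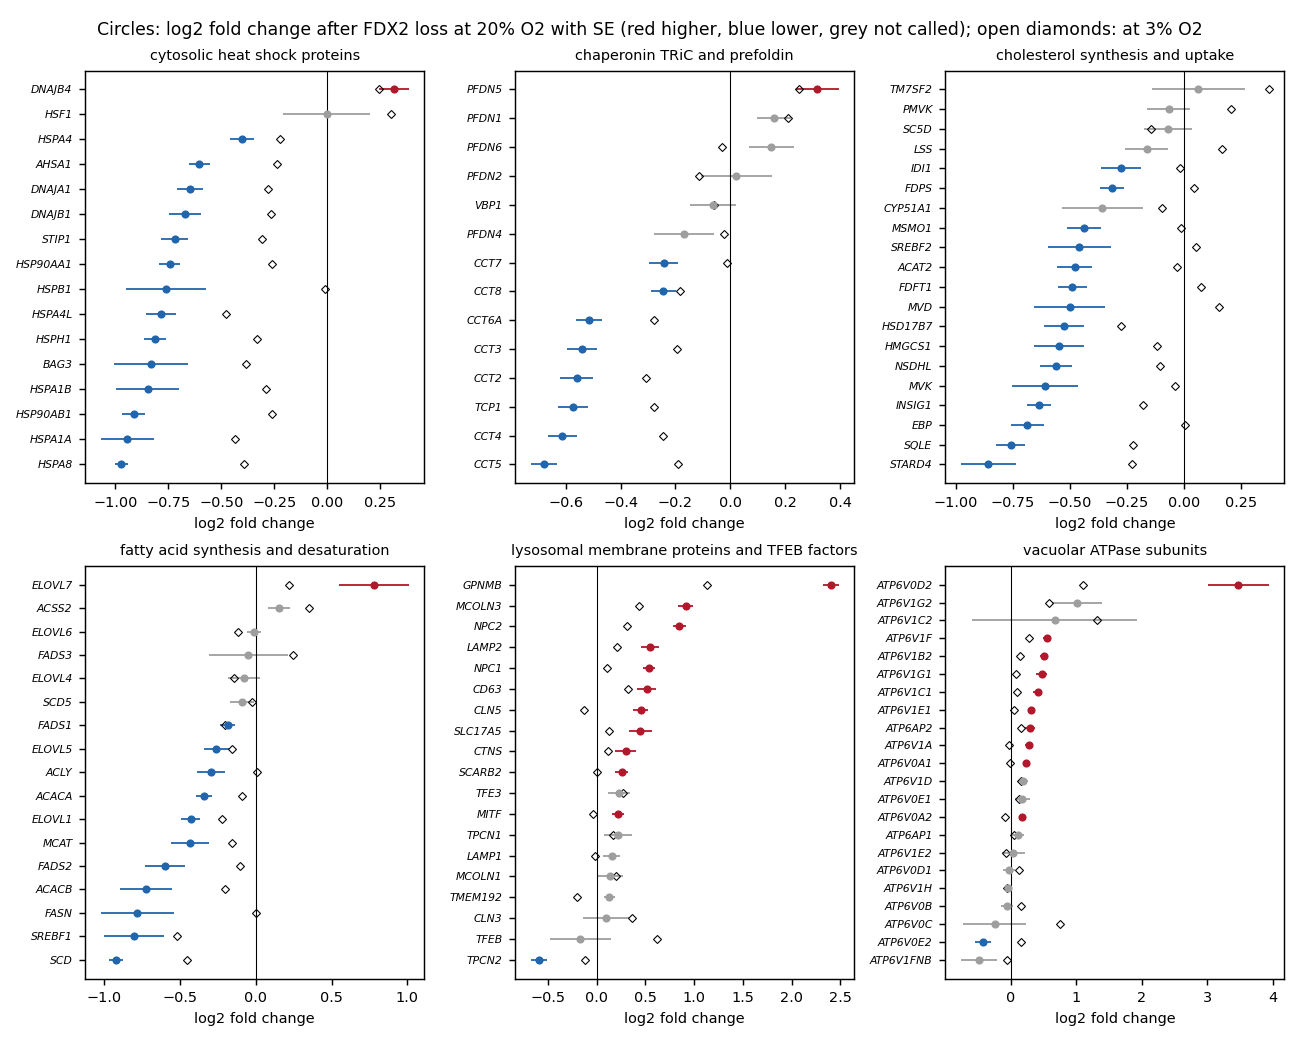
Log2 fold change at 20% O2 with its SE (circles, red higher, blue lower, grey not called) and at 3% O2 (open diamonds) for heat shock proteins, TRiC and prefoldin, cholesterol and fatty acid synthesis, lysosomal membrane proteins and the vacuolar ATPase. Heat shock proteins and lipid synthesis lie left of 0 at 20% O2 (medians −0.75, −0.49 and −0.30), and lysosomal membrane proteins to the right (0.26).

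In membrane traffic the counts lay near those over all genes. RAB GTPases split 13 higher to 7 lower of 52, with RAB27B (1.04) (28.1 to 57.7 CPM), which drives exosome secretion, rising most among those above 5 CPM and RAB38 (−0.54) and RAB8A (−0.46) lower. Coat proteins split 6 to 4 of 24, with a median of −0.05 (0.07 with library totals alone).

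With TMM scaling, most genes for processing and exporting RNA and for building ribosomes were lower. Most genes of the ribosome's own proteins were not called. With library totals alone the lower members were 33 of 71 spliceosome and hnRNP genes and 14 of 29 nucleoporins (medians −0.21 and −0.20). They were 9 of 24 importins and exportins and 20 of 41 ribosome biogenesis factors (medians −0.11 and −0.21), so no list had most of its members lower. Of 71 tested spliceosome and hnRNP genes, 46 were lower and 1 higher (median −0.34). SRSF2, a splicing factor of the SR family, had 513, 429 and 429 CPM with Doxy and 230.2, 226 and 221 CPM without (−1.02, SE 0.0896, adjusted p = 9.92e-06 by edgeR, overlap 36.7%). HNRNPA2B1, the most abundant of those called, went from 2004 ± 124 to 1241 ± 17.4 CPM (−0.69), and HNRNPF (−0.74), HNRNPDL (−0.67) and HNRNPAB (−0.63) and SRSF1 (−0.85) (overlap 60.7%) were lower. Of 29 nucleoporins 23 were lower and 0 higher (median −0.33), from NUP37 (−0.56) to the small change of NUP205 (−0.15). Importins and exportins had 14 lower and 3 higher of 24 (median −0.23), with KPNA2 (−0.98) (499 to 253 CPM) falling most and the tRNA exporter XPOT (0.33) among those that rose. Ribosome biogenesis factors had 25 lower and 1 higher of 41 (median −0.34). The nucleolar protein nucleolin NCL had 1924, 2099.7 and 2064 CPM with Doxy and 1369, 1316 and 1305 CPM without, without overlap, and NPM1 (−0.55), NOP56 (−0.65) and BOP1 (−0.69) fell likewise, while RRN3 (0.34), a factor for RNA polymerase I, rose. MYC was not called (−0.10).

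By contrast, 67 of 85 cytosolic ribosomal proteins were not called, with 5 higher and 13 lower. With library totals alone 15 were higher and 4 lower, and with the GC correction 10 were higher and 7 lower. Their median was −0.02, but 0.10 with library totals alone and 0.03 with the GC correction. Translation initiation factors had 7 higher and 18 lower of 46 (median −0.11, but 0.02 with library totals alone): the abundant EIF5A (−0.71) and EIF4G1 (−0.68) fell, and EIF1 (0.48), EIF4A2 (0.45) and EIF2S3 (0.30) rose. Purine and pyrimidine synthesis had 12 lower and 0 higher of 20 (median −0.27, but 7 lower and −0.15 with library totals alone). Among the 12 were PRPS2 (−0.64), PFAS (−0.62), GMPS (−0.53) and CTPS1 (−0.46) and DHODH (−0.41), the mitochondrial enzyme of pyrimidine synthesis. Host genes of small nucleolar RNAs went both ways, 8 higher and 5 lower of 29 (median 0.13). GAS5, named for its accumulation in growth-arrested cells, had 389, 431 and 442 CPM with Doxy and 794, 837 and 813 CPM without (0.95, SE 0.0866), and SNHG32 (1.17) and SNHG8 (0.74) and ZFAS1 (0.91) (overlap 46.9%) rose too, while DANCR (−0.61), SNHG3 (−0.54) and SNHG16 (−0.40) fell. In the same libraries 167 of 231 tested cell cycle genes were lower and 6 higher (median −0.47). Their part in the falls of this machinery was not tested.

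Histone genes divided by kind. Replication-dependent histone mRNAs end in a stem-loop and normally lack the poly(A) tail by which these libraries were made, so their counts come from the fraction that is polyadenylated. Of 64 such genes 27 could be tested, 18 of which were higher and 0 lower (median 1.16, 15 by at least 2-fold). H2BC5 had 2.01, 1.49 and 2.06 CPM with Doxy and 10.3, 11.0 and 9.91 CPM without (2.48, SE 0.128, adjusted p = 3.31e-07 by edgeR), all 3 values without Doxy being several times those with Doxy. H4C8 (3.04), H2BC15 (2.66), H2BC21 (2.30), H2BC4 (2.28), H3C6 (2.09) and H2BC11 (2.03) rose similarly from low levels, and H1-2 (0.42) less. H2BC6 (0.08) and H2BC9 (0.32) were not called. Copies of these genes resemble each other, and reads could be split between them. Of 9 replacement histone and linker genes, which are made with ordinary poly(A) tails (H2AX also as a stem-loop transcript), 5 were lower and 1 higher (median −0.44, but −0.28 with the GC correction): H2AX (−1.23), H2AZ1 (−0.56), H3-3B (−0.46) and MACROH2A1 (−0.44) fell.

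The octamer letters ATTTGCAT, a known element of H2B promoters, were found on one strand or the other in 12 of 27 matched histone windows and in 1.77% of all windows. Of the 12 genes, 10 were higher and 2 were not called, and in the whole list 18 of 27 tested genes were higher. H2AC11 and H2BC11 matched at one shared site, as did H2AC6 and H2BC4, so the 12 matches are not 12 separate sites. H2B windows with and without a change are shown, the octamer in capitals:
H2BC21 (chr1:149886701-149886748): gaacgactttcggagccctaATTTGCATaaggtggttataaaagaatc
H2BC4 (chr6:26124022-26124069): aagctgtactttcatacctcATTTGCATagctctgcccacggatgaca
H2BC11 (chr6:27132815-27132862): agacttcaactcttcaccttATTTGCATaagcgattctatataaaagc
H2BC8 (chr6:26216709-26216756): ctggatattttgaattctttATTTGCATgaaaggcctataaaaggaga
H2BC6 (chr6:26183633-26183680): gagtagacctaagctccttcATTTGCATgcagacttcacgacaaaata
H2BC9 (chr6:26251545-26251592): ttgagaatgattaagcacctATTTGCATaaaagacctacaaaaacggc
The first 4 belong to genes that were higher and the last 2 to genes that were not called, and each holds the 8 letters on the gene strand.

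Among transcription factors, the circadian clock and immediate early genes rose in part. Of 17 clock genes 7 were higher and 0 lower (median 0.35): BHLHE41 (0.97), NFIL3 (0.89), CIART (0.89), BHLHE40 (0.60), BMAL1 (0.42) and CRY1 (0.38) and NR1D2 (0.35), whereas CLOCK (−0.16) and the PER genes (0.02, −0.26 and 0.23 for PER1, PER2 and PER3) were not called. Of 21 AP-1 and immediate early genes 7 were higher and 1 lower (median 0.31, but 0.50 with the GC correction): FOSB (1.51) (3.99 to 11.4 CPM), IER3 (0.67) and MAFG (0.42) rose, NR4A3 (2.42) (0.321 to 1.74 CPM) rose from low levels, and JUN (−0.43), called in 11 of 15 settings, fell. Of 29 p53 targets 8 were higher and 4 lower (median 0.19), with TP53INP1 (1.91), GADD45A (1.47) and CCNG2 (0.66) among the first and PLK2 (−0.39) and MDM2 (−0.35) among the second. KLF and SP factors split 6 to 5 of 22, KLF2 and SP6 (−0.72) being lower and KLF9 (0.92) and KLF10 (0.29) higher. HOX genes had 3 higher and 8 lower of 33 (median −0.27, but −0.13 with the GC correction), HOXB9 (0.66) and HOXB2 (−0.57) being the most abundant in each direction. Forkhead and SOX factors had 5 and 4 of 33, with FOXO1 (0.55), FOXO4 (0.71) and SOX5 (1.21) higher and FOXM1 (−0.81) and FOXF2 (−0.99) lower. Of 419 ZNF genes 98 were higher and 34 lower, and their median was 0.06.

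Interferon and antigen presentation genes were higher in part. Of 34 tested interferon-induced genes 15 were higher and 1 lower (median 0.52), with MX1, MX2, OAS1, BST2 and XAF1 too low to test. SAMD9L (2.36) (1.17 to 6.00 CPM), IFIT3 (1.05) (6.50 to 13.5 CPM) and GBP2 (1.02) (1.28 to 2.60 CPM) rose, but all were low transcripts, and IFIT1 (−0.23) was not called. MHC class I presentation had 11 higher and 1 lower of 22 (median 0.32). HLA-B had 12.3, 10.3 and 10.6 CPM with Doxy and 23.4, 25.1 and 22.4 CPM without (1.09, SE 0.0891), with no overlap, and TAP1 (0.74), NLRC5 (0.66), B2M (0.49) and ERAP1 (0.48) rose with it, although HLA copies share sequence. HLA-C (0.21) and TAPBP (0.29) were not called, and the stress ligand MICA (−0.34), called in 10 of 15 settings, was lower.

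NF-kB subunits and feedback genes had 9 higher and 2 lower of 19 (median 0.32), with BIRC3 (1.72) (7.64 to 25.2 CPM), TNFAIP3 (1.45) (9.03 to 24.7 CPM), TRAF1 (2.26), CYLD (0.60) and NFKBIA (0.34) rising, RELA not called (0.00) and NFKB1 (−0.28) lower. Complement and coagulation genes had 9 higher and 4 lower of 22 (median 0.25): tissue factor F3 (1.13), the complement regulator CD55 (0.68) and tissue plasminogen activator PLAT (0.69) were higher, and the abundant ANXA2 (−0.48) and C1QBP (−0.47) lower. Of 9 EGF receptor and ligand genes 4 were higher and 1 lower (median 0.50, but 0.20 with at least 10 counts in every library and 0.33 without replicate 1 with Doxy): epiregulin EREG (8.28 ± 1.20 to 25.9 ± 1.08 CPM, 1.65) and amphiregulin AREG (0.774 to 1.69 CPM) rose and NRG1 (−0.41) fell. Phosphatases and Sprouty proteins that dampen MAP kinases had 7 higher and 3 lower of 24, led by DUSP10 (1.79) (8.02 to 27.7 CPM) and DUSP1 (1.22) (64.6 to 151 CPM), with DUSP7 (−0.78) lower.

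TXNIP, an arrestin-domain protein that limits glucose uptake and binds thioredoxin, had 66.3, 72.4 and 76.7 CPM with Doxy and 206, 203 and 209 CPM without (1.52, SE 0.0681, adjusted p = 1.39e-07 by edgeR), so that all 3 values without Doxy were well above those with Doxy. Its relatives ARRDC3 (0.95) and ARRDC4 (0.91) rose as well. Of the 7 tested genes of this list, TXNIP included, 3 were higher, 1 lower and 3 not called. Their median was −0.04, but 0.08 with library totals alone, 0.18 with the GC correction and 0.13 without replicate 1 with Doxy. Of the developmental pathways, TGF-beta superfamily genes split 7 to 8 of 40 (median 0.10). With library totals alone 19 of them were higher and 5 lower, and with the GC correction 18 were higher and 7 lower. The activin subunit INHBA (0.81) (194 to 339 CPM) and the activin antagonist FSTL3 (0.91) were higher and FST (−0.53) was lower. WNT genes split 4 to 3 of 25, with a median of −0.09 (0.03 with library totals alone), DKK3 (0.65) and DKK1 (0.27) being higher and SFRP1 (−0.63) lower. YAP targets split 8 to 4 of 24 (median 0.06), with CCN2 (−0.48) lower and TEAD3 (0.61) and GADD45B (0.64) higher. In the NOTCH pathway 5 were higher and 2 lower of 20, the ligand JAG1 (0.97) and the target HEY1 (0.65) rising and NOTCH3 (−0.98) falling.

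Genes of the cytoskeleton were lower more often than higher. Of 15 tubulin genes 8 were lower and 2 higher (median −0.44). TUBB6 had 782, 610.1 and 566 CPM with Doxy and 355, 358 and 327 CPM without (−0.91, SE 0.124), and TUBB4B (−0.89), TUBA1B (−0.84), TUBA1C (−0.80) and TUBB (−0.74) were lower, with the reservation that tubulin genes and pseudogenes share sequence, while TUBA1A (0.62) and TUBE1 (0.90) were higher. Of 31 actin and contractile genes 12 were lower and 4 higher (median −0.28, but −0.05 with the GC correction and −0.12 without replicate 1 with Doxy). Beta-actin ACTB had 3983, 3168 and 3061 CPM with Doxy and 1985, 1927 and 1887 CPM without (−0.82, SE 0.139), without overlap, and ACTG1 (−0.48), CFL1 (−0.55), MYH10 (−0.60), CNN3 (−0.52) and VIM (−0.49) were lower, whereas CNN1 (1.66) (0.840 to 2.65 CPM) and ACTA2 (1.09) (0.425 to 0.909 CPM) rose from low levels. Keratins had 4 lower and 1 higher of 11 (median −0.21, but −0.07 with the GC correction). Genes of intraflagellar transport and the BBSome, which build and serve the primary cilium, had 14 higher and 2 lower of 32 (median 0.22), WDR19 (0.82), BBS10 (0.62) and IFT46 (0.56) rising most.

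At the cell surface and in the matrix, collagen chains split 6 to 5 of 26 (median −0.14, but 0.17 with the GC correction and 0.04 without replicate 1 with Doxy): COL12A1 (0.27) (426 to 512 CPM), COL4A5 (0.54), COL5A2 (0.45) and COL7A1 (0.98) rose, COL4A1 (−0.62) and COL17A1 fell, and COL1A1 (−0.44) was not called. Matrix glycoproteins and proteoglycans had 11 higher and 3 lower of 28 (median 0.17), with fibronectin FN1 (662 ± 33.2 to 851 ± 4.48 CPM, 0.36), fibrillin FBN1 (1.00) and syndecan SDC2 (0.98) higher and SDC1 (−0.78) lower. Laminins had 3 and 1 of 10, LAMA4 (1.14) and LAMA3 (0.78) being higher, and integrins 5 and 2 of 17, with ITGA10 (0.90) and ITGA1 (0.87) higher and ITGB8 (−0.79) and ITGA4 (−0.50) lower. Metalloproteinases, ADAMs and TIMPs had 12 higher and 4 lower of 40 (median 0.12), MMP12 (1.99) rising from a low level and ADAMTS2 (−0.63) and TIMP3 (−0.25) falling. Cadherins and protocadherins had 8 higher and 0 lower of 38 (median 0.35, but 0.15 with at least 10 counts in every library), led by CDH19 (1.80), PCDH7 (0.95) and CDH6 (0.92), and many protocadherins share exons. S100 and annexin genes had 8 higher and 4 lower of 21 (median 0.31, but 0.16 with at least 10 counts in every library), with S100A6 (0.85) and S100A11 (0.58) in the first group and ANXA11 (−0.52) and ANXA6 (−0.45) in the second. Tetraspanins split 4 to 6 of 19, with CD9 (1.05) and CD82 (0.71) higher and TSPAN14 (−0.83) and CD81 (−0.64) lower. Potassium channels had 10 higher and 3 lower of 28 (median 0.15), KCNN4 (1.25), KCND1 (0.98) and KCNK2 (0.35) rising. ABC transporters had 9 and 3 of 27 (median 0.10), with the potassium channel regulator ABCC9 (1.43) (13.6 to 36.6 CPM) higher and ABCB10 (−0.67) of the mitochondrion lower, and zinc transporters 4 and 1 of 17, with SLC30A9 (0.34) higher and SLC39A3 (−0.69) lower.

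Gene types differed in their counts. Of 12558 tested protein-coding genes 2334 were higher (18.6%) and 2775 lower (22.1%), with a median of −0.03, whereas of 924 lincRNA genes 243 were higher (26.3%) and 42 lower (4.55%), with a median of 0.31. Antisense genes had 192 higher (12.3%) and 42 lower (2.69%) of 1559 (median 0.34). For these the strand setting of the counting is not stated, so reads from the opposite gene cannot be told apart. Processed pseudogenes had 22 higher (4.55%) and 49 lower (10.1%) of 484. In both of these types each share lay below that over all tested genes (17.6% higher and 17.7% lower). The filter can pass a low gene on the counts of a single group, so low genes can enter through the group where they are high. The shares by gene type were not recounted with counts required in every library. In all, 8 genes had at most 3 counts in each library with Doxy and a mean of at least 1 CPM without. SPINK1, a secreted trypsin inhibitor, had 1, 0 and 0 counts with Doxy and 56, 84 and 72 without, and the ratio of summed counts was 210.5 (95% interval 37.4 to 8352), an exact interval that covers counting error only. The zinc finger gene ZNF736 had 2, 2 and 1 counts with Doxy and 45, 45 and 32 without, a ratio of 24.2 (95% interval 10.1 to 75.9). LINC00520 (147 (95% interval 26.0 to 5842)), LINC01828 (47.2 (95% interval 12.7 to 395)), LINC02154 (26.4 (95% interval 11.0 to 82.7)), SUGCT-AS1 (20.5 (95% interval 8.49 to 64.3)) and ENSG00000245008 (13.3 (95% interval 6.50 to 31.5)) are noncoding. The ribosomal pseudogene RPLP0P2 was at 0 counts with Doxy and at 41, 31 and 37 without, at least 11.9-fold higher against a floor of 3 counts per library, and its parent gene has near-identical sequence. No gene met the reverse rule.

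Per kilobase of exon, the most abundant of the genes that changed at least 2-fold was the collagenase MMP1, at 2308 to 4854 CPM per kb. MMP3 (36.9 to 202), CXCL8 (56.1 to 132) and LINC00973 (23.8 to 99.2) also rose to high levels per kb. Those that fell were SRSF2 (151 to 74.8), CCNB1 (132 to 59.3), TACC3 (129 to 61.8), H2AX (121 to 51.5) and UBE2S (102 to 48.7). MMP1 thus exceeded each of the other 9 on this scale in both groups.

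Some calls named in this account were lost when a single library was left out, each with its log2 fold change on the same side of 0. Leaving out replicate 1 with Doxy ended the call of AMH, ELOVL7, FASN, HARS1, HOXB2, JUN, MICA, MT-ND2, MT1X, NARS1, NR1D2, PSMB9, SARS2 and SREBF2. For replicate 2 with Doxy these were APOE, CARS2, CEBPB, ELOVL7, HARS1, MT-ND2, MT1X, NARS1, NR1H3, NUP205 and PSMB9. For replicate 3 with Doxy these were APOE, CARS2, CEBPB, MT1X, NR1H3 and PSMB9. Leaving out replicate 1 without Doxy ended the call of APOE, CARS2, CEBPB, FASN, HARS1, MICA, MT-ND2, MT1X, NARS1, NR1H3, NUP205, PSMB9, RARS2 and SARS2. For replicate 2 without Doxy these were APOE, CARS2, CEBPB, ELOVL7, FASN, MICA, MT-ND2, NARS1, NR1D2, NR1H3, PFDN5, PSMB9 and SARS2. For replicate 3 without Doxy these were AMH, CARS2, CEBPB, ELOVL7, FASN, HARS1, JUN, MT-ND2, MT1X, NARS1, NR1D2, PSMB9, SARS2 and SREBF2. With library totals alone the decreases of ACADSB, ALAD, CCT7, CCT8, COQ2, HARS1, HMOX2, HSP90B1, IARS2, JUN, MDM2, MICA, NUP205, PEX5, RARS2, SARS2, SOD1 and SREBF2 were no longer called, and with the GC correction those of CLPP, KRT7, PEX5, SARS2 and SOD1.

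The same contrast at 3% O2 addressed whether the responses depended on the oxygen level. There 709 genes were higher (4.2%) and 526 lower (3.11%) without Doxy, and for 1231 genes (7.29%) the response differed between oxygen levels by the interaction test in edgeR. The 2 contrasts share no library. The ATF4 pathway had a median of 0.28 at 3% O2 against 1.41 at 20% O2, and the response of 10 of its 17 members differed, each with the lower value at 3% O2. Among cytosolic synthetases 11 of 20 differed (median −0.10 at 3% O2), among amino acid transporters 7 of 23, among heat shock proteins 8 of 16 (median −0.27) and in cholesterol synthesis 11 of 23 (median −0.04). Nucleoporins had a median of −0.33 at 20% O2 and −0.15 at 3% O2, with 0 of 29 members called different. For the replication-dependent histones 6 of 27 differed, and their median remained high at 3% O2 (0.88). Of the 83 medians, 60 lay nearer 0 at 3% O2. Cells of the 3% O2 groups spent 4 days at 20% O2 and 3 days at 3% O2, against 6 days at 20% O2, so oxygen level and time cannot be told apart. Leaving out one library changed the count of differing genes from 1231 to between 520 (without 20% O2 wo Doxy replicate 3) and 2191 (without 3% O2 + Doxy replicate 3).

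**Figure D4:**
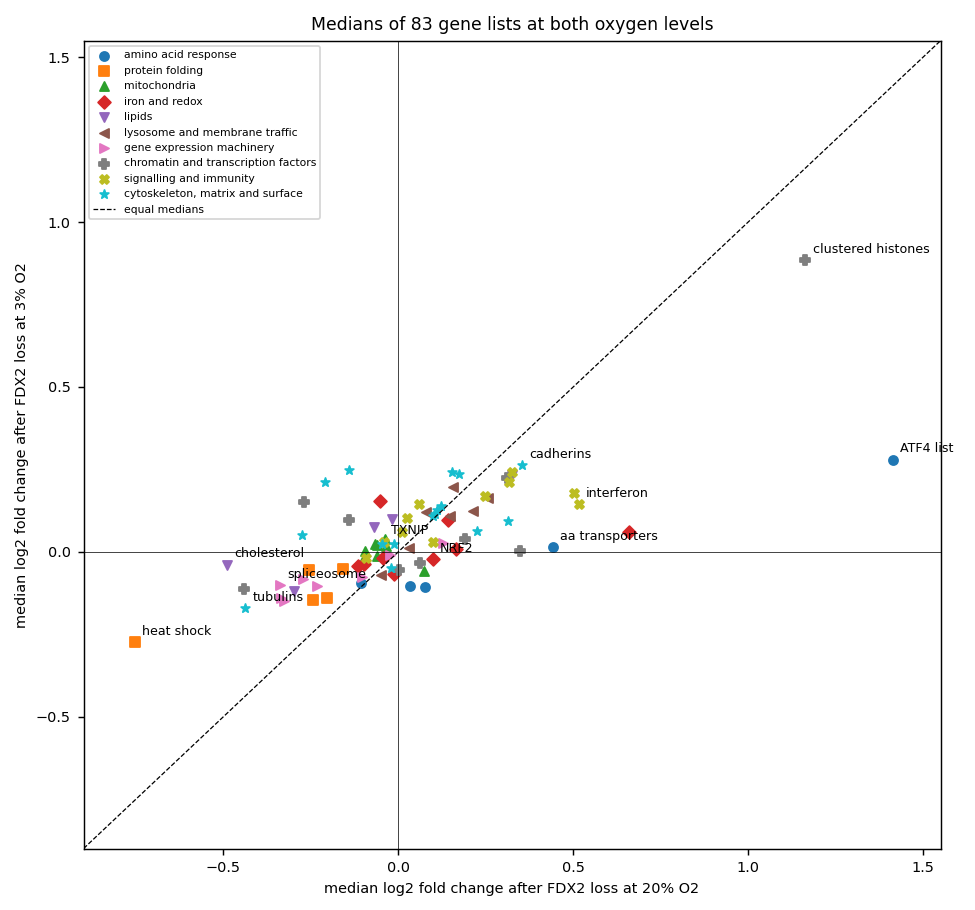
Median log2 fold change of each of the 83 lists without over with Doxy at 20% O2 (x axis) and at 3% O2 (y axis), with the diagonal drawn. The ATF4 pathway lies at 1.41 and 0.28, heat shock proteins at −0.75 and −0.27, and replication-dependent histones at 1.16 and 0.88.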

How the data were processed

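RNA-seq was performed on 12 cultures of FDX2-iKO ES2 cells in 4 groups of 3. The counts were deposited by the authors as raw whole-number reads per gene. By the submitters' notes reads were aligned with STAR and assigned with featureCounts on GRCh38, and DESeq2 normalization was not applied to the deposited values. Versions and the strand setting are not given in the sources used here, so overlapping and antisense genes are uncertain. Totals in the 6 libraries at 20% O2 lay between 28018539 and 34313637 counts, and genes with few counts are limited by counting error.

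The analysis ran in R 4.3.3 using edgeR 4.0.16 and limma 3.58.1 (TMM, filterByExpr with a minimum count of 10 and total of 15, quasi-likelihood test, Benjamini-Hochberg adjustment over 16891 genes, threshold 0.05). One model with 4 group means was fitted to 12 libraries (8 residual degrees of freedom, biological coefficient of variation 16.3%). Members and gene lists were chosen with earlier results of these data known, and no list was tested as a set. Some genes are not reported here, although they stay in all fits, list counts and medians. Positions, exon overlaps, gene types and GC content are from GENCODE release 29 on GRCh38. Of 87 lists, 83 are described, and 4 (senescence-associated secretory phenotype, HIF-1, Fe-S, cell cycle) were left out of the ranking. The 40 ranked genes have a symbol, average 5 CPM or more and do not overlap between groups. Any member of a list of up to 20 tested genes could be named, and longer lists gave members with large changes or high CPM among those called, and some further members were named after their values were seen. Genes with at most 3 counts in every library of a group and at least 1 CPM in the other, and the 10 changed genes most abundant per kilobase, were also named. Promoter windows are from RefSeq.

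Alternatives were other scaling (DESeq2 1.42.0 size factors, library totals), other filters, a replicate block, only the 20% O2 libraries, DESeq2's Wald test, leaving out each library, and a GC correction (loess span 0.3, genes above a log2 CPM of 2) chosen after seeing the data. Labels name the replicates as biological but give no pairing. Deviations of same-numbered libraries with and without Doxy correlated at 0.0053, −0.16 and 0.18. Steps were tested on simulated data.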

Additional observations from a re-analysis of the deposited data

Results flagged for a closer look

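The genes ranked or shown by library at 20% O2, with those of the detection rule, numbered 69, and for 54 of them the response to Doxy removal differed between 3% and 20% O2 by the interaction test in edgeR (adjusted p from 1.77e-06 to 0.0493, against 7.29% of all tested genes). Values are the log2 fold change at 3% O2 minus that at 20% O2. In all 54 the log2 fold change was smaller in size at 3% O2, and in 46 it had the same sign. These genes were chosen for their change at 20% O2, so that a smaller value at 3% O2 is partly fixed by the choice.

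Among the amino acid response the differences were ASNS (−2.13), CHAC1 (−1.90), DDIT4 (−1.74), ATF3 (−1.65), DDIT3 (−1.64), SLC7A11 (−1.39), AARS1 (−0.92) and SDSL (−0.86) and, in the endoplasmic reticulum, XBP1 (−0.83). Metabolic and redox genes had SULT1C2 (−1.84), TXNIP (−1.86), SAT1 (−1.45), SLC16A6 (−1.37), SQSTM1 (−0.92), FTL (−0.63) and NQO1 (−0.54), and lysosomal genes CTSS (−1.27), GPNMB (−1.27) and TPP1 (−0.67). The increases of PAPPA2 (−2.04), SPX (−1.44), KLHL24 (−1.35), TP53INP1 (−1.22), VCAM1 (−0.90), HECW2 (−0.80) and HLA-B (−0.53) and of the histone and noncoding genes H2BC15 (−1.16), H2BC5 (−0.92), LINC00973 (−1.11) and GAS5 (−0.64) were also smaller. DDIT4 with Doxy was itself higher at 3% O2 (25.5, 34.8 and 33.9 CPM) than at 20% O2 (mean 4.79 CPM). Without Doxy DDIT4 had 33.5, 36.4 and 43.6 CPM at 3% O2 and a mean of 19.3 CPM at 20% O2. By contrast, DDIT3 with Doxy stood at 8.13, 7.33 and 8.05 CPM at 3% O2 and at a mean of 7.96 CPM at 20% O2. Why DDIT4 responded less at 3% O2 was not tested.

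For genes that fell, the difference was positive: HSP90AB1 (0.65), HSPA8 (0.58), CCT5 (0.49) and HSPD1 (0.35) in protein folding, SCD (0.47) in lipid supply, SRSF2 (0.94), RBM14 (0.66) and NCL (0.37) in RNA handling, CCNF (1.10), LRRC45 (1.13), PIF1 (0.91), KIFC1 (0.84) and FAM111B (0.37) in replication and mitosis, and CAVIN3 (1.19), APLN (1.01), COL17A1 (0.91), TNFAIP8L1 (0.76), TUBB6 (0.74) and SERPINA1 (0.52) elsewhere. For 5 genes near the limit of detection with Doxy the fitted differences depend on the prior count and are given as fitted values alone: SPINK1 (−6.87), ENSG00000245008 (−3.04), ZNF736 (−4.62), SUGCT-AS1 (−3.55) and RPLP0P2 (−7.33).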

How the results depend on the processing

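At 20% O2, the 2971 higher and 2990 lower genes became 4256 and 1708 with library totals alone, 4412 and 3427 with the GC correction, 1912 and 1733 at an adjusted p under 0.01, and 777 and 133 with a 2-fold minimum. Leaving out one library at a time gave 2093 to 2649 higher and 2180 to 2926 lower genes. The 1231 genes whose response differed between oxygen levels became 672 without the filter, 1932 with DESeq2, 3094 with the GC correction, 382 at an adjusted p under 0.01, 186 with a 2-fold minimum and 520 to 2191 when one library was left out. With the replicate number as a block, 2645 genes were higher, 2434 lower and 615 differed between oxygen levels, and since same-numbered libraries did not deviate together the numbers were not taken as pairs. All other settings left these counts within 1.5 times. List medians turned sign for 23 lists with library totals alone, 14 with the GC correction, 5 without the filter, and 1 to 7 when one library was left out. Those that turned by more than 1 SD between replicates, from a value over 1 SD from 0, were, with library totals alone, those of the TCA cycle (0.062), mitochondrial ribosomal proteins (0.026), coenzyme Q synthesis (0.063), ferroptosis (0.011), superoxide enzymes (0.023), peroxins (0.052), coat proteins (0.074), initiation factors (0.018) and WNT genes (0.029). With the GC correction they were coenzyme Q synthesis (0.027), ferroptosis (0.037) and peroxins (0.022), with one library left out at a time serine enzymes (−0.0056 to 0.12) and peroxins (−0.10 to 0.0026), and without the filter cytosolic synthetases (−0.0058). The cause was not tested. Of the 40 ranked genes only AMH lost its call, when replicate 1 with Doxy (−0.88) or replicate 3 without Doxy (−1.15) was left out. Counts limit low genes, and 3 replicates a group limit every test.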
